A study of Homo sapiens with 18 samples.

Results

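Ubiquitin-conjugating enzymes, the E2 enzymes of the UBE2 gene family, were followed in 3 human lymphoma lines under a BCL6 inhibitor. Members were the rows of the deposited expression table whose gene name begins with UBE2. UBE2C was left out, rows that merge several genes were skipped, and of several rows for 1 gene the row with the highest mean was kept. This gave 34 genes of 34410 loci in the table, of which 26004 carried a gene name. Of the 34 genes, 26 reached at least 1 FPKM (the fragment count of a locus normalised to its transcript length and to all mapped fragments) in at least 3 of 18 libraries and were tested, among 12201 genes in all. Each of the 26 was at or above 1 FPKM in all 18 libraries.

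The libraries came from SUDHL6, SUDHL4 and Farage, established lines of diffuse large B cell lymphoma that the labels class as germinal centre B cell-like. Each line was treated with a BCL6 inhibitor (the label BCL6.inh) or with the solvent DMSO, which gave 6 groups of 3 libraries: SUDHL6 BCL6.inh and SUDHL6 DMSO, SUDHL4 BCL6.inh and SUDHL4 DMSO, Farage BCL6.inh and Farage DMSO. BCL6 is a transcriptional repressor of germinal centre B cells, and the comparison asks what its inhibition does to transcript levels. Treatment lasted 12 h by the sample titles and 24 h by the source names, and the sources used here name neither the compound nor its dose. All groups were grown in the same medium with 10% fetal bovine serum.

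Ubiquitin is a small protein that cells attach to other proteins in a relay. An E1 enzyme activates it, an E2 enzyme carries it as a thioester, and an E3 ligase brings the charged E2 to the target. The E2 largely sets which lysine links the next ubiquitin of a chain and thereby whether the target goes to the proteasome, to a repair complex or into a signalling complex. A few E2 enzymes carry ubiquitin-like proteins instead, among them ISG15 and FAT10. In germinal centre B cells this system is known for the turnover of cell cycle regulators, for signalling to NF-kB and for the repair of damaged DNA.

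Promoters of 2 members that rose and 2 that fell in all 3 lines are shown first, so that their letters can be compared; these 4 were chosen after their values were seen. They run from 250 bases before to 50 bases after the annotated start, come from RefSeq (GRCh38.p14) and are written 5′ to 3′ on the gene's strand. Of the 26 tested genes, 20 matched an entry of the promoter table, with 31 promoters between them; UBE2B, UBE2H, UBE2Q1, UBE2V2 and UBE2W were among those with none. UBE2Z (chr17:48908157-48908456, plus strand) and UBE2A (chrX:119574313-119574612, plus strand) rose, and UBE2T (chr1:202341887-202342186, minus strand) and UBE2G2 (chr21:44801771-44802070, minus strand) fell. Each has a single start in the table. Capitals mark matches to the motifs listed after the sequences.
UBE2Z: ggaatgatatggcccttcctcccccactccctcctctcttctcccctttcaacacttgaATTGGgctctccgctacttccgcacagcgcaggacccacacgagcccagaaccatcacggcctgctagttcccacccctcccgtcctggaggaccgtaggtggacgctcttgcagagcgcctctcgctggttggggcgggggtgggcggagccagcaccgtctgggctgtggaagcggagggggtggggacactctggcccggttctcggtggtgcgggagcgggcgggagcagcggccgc
UBE2A: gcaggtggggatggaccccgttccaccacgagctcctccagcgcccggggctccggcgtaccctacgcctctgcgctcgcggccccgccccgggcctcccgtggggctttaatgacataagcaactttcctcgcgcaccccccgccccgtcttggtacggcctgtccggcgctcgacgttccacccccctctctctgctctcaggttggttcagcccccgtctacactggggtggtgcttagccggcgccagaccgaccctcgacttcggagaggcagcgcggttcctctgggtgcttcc
UBE2T: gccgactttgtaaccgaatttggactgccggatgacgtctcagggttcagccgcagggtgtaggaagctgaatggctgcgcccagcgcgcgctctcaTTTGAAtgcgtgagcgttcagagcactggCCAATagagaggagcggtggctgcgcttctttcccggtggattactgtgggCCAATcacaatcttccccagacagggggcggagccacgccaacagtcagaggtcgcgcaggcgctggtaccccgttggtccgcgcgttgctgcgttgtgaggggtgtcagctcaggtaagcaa
UBE2G2: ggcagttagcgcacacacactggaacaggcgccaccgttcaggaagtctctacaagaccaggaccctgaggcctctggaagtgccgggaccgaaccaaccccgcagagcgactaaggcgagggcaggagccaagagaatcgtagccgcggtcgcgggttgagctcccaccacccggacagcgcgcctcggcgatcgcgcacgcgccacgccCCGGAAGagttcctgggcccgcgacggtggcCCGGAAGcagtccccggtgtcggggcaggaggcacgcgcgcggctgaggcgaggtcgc

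The UBE2T promoter holds 2 CCAAT boxes, the letters bound by NF-Y, and 1 TTTGAA, the letters of the cell cycle homology element. The UBE2G2 promoter holds 2 copies of CCGGAAG, a core of ETS factor sites. UBE2Z holds 1 CCAAT on the opposite strand, and UBE2A holds none of the letters searched. Over both strands, CCAAT lay in 9 of the 31 promoters, against 34.6% of all 35116 promoters in the table. TTTGAA lay in 1 of 31, against 15.2% of all. CCGGAAG lay in 4 of 31, against 10.3%, and TGACNNNGC, the antioxidant response element, in 4 of 31, against 13.3%. TGACGTCA, the cyclic AMP response element, was found in 1 (UBE2S), against 1.85%, and the interferon response element in 1 (UBE2D3), against 3.57%. None of the 31 held TTTNGCGC of E2F (1.79% of all), CACGTG of MYC (7.26%), TGATGNAA of ATF4 and CHOP (3.62%), the heat shock element (0.49%) or the palindrome TTCNTNGAA of the kind that BCL6 and STAT factors bind (3.56%). Matches of different motifs may overlap, and a match or its absence describes only these letters in this window.

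Libraries within a group were alike in SUDHL4 and Farage, where Pearson's r of log2(FPKM + 1) lay between 0.957 and 0.973. Both SUDHL6 replicate 3 libraries stood apart, with r of at most 0.895 among BCL6.inh libraries and at most 0.909 among DMSO libraries, and calls that change without both of them are given beside the result. FPKM sums ran from 1130063 to 1548453 per library. Read counts were not in the table and absolute depth is unknown; relative depth, read from the steps of values at short loci in 16 libraries, spanned 0.692 to 1.15 and was lower in BCL6.inh than in DMSO libraries in every line. Its part in the results was not tested. The B cell markers MS4A1, PAX5 and CD74 were at 1 FPKM or more in all libraries. With inhibitor and DMSO, PAX5 averaged 11.2 and 44.8 FPKM in SUDHL6, 13.7 and 47.2 FPKM in SUDHL4, and 10.4 and 52.6 FPKM in Farage, and MS4A1 averaged 312 and 657, 681 and 935, and 234.5 and 455 FPKM in the same order of lines. CD74 averaged 1028 and 1380 FPKM in SUDHL6, 3088 and 2659 FPKM in SUDHL4, and 273 and 429.9 FPKM in Farage. Also at 1 FPKM or more in all libraries were the germinal centre markers BCL6, SERPINA9 and LMO2, while MME averaged 0.945 FPKM in Farage BCL6.inh libraries. BCL6 itself averaged 71.7 and 82.2 FPKM with inhibitor and DMSO in SUDHL6, 72.3 and 131 FPKM in SUDHL4, and 61.9 and 53.8 FPKM in Farage. Monocyte markers summed to 2.27 to 3.50 FPKM in BCL6.inh libraries and 0.694 to 1.99 FPKM in DMSO libraries, and epithelial markers to at most 1.86 FPKM. T cell markers summed to at most 1.48 FPKM per library. Fibroblast markers summed to 14.7 to 15.8 FPKM in SUDHL4 BCL6.inh libraries and 51.2 to 55.3 FPKM in SUDHL4 DMSO libraries, carried by THY1 and DCN while COL1A1 and COL1A2 were near 0, and to at most 1.08 FPKM in the other lines. The part of these markers in the results was not tested.

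More members rose than fell under the inhibitor in each line, except in SUDHL4 under 1 of the scalings tried, and the enzymes that rose most were UBE2B, UBE2W, UBE2Z, UBE2H, UBE2A and UBE2D3. UBE2T and UBE2L6 fell most. In SUDHL6, 13 of 26 members rose and 7 fell (limma, Benjamini-Hochberg adjusted p under 0.05). Of all genes tested 63.9% were called there, 30.2% up and 33.7% down. Fitted on the SUDHL6 libraries alone, 2 members fell, since UBE2T, UBE2L6 and 3 others then missed the threshold (UBE2T adjusted p = 0.0545, UBE2L6 adjusted p = 0.0533). Rises in that fit numbered 10, without UBE2D1, UBE2K and UBE2V2 (adjusted p = 0.156, 0.1 and 0.165). Of all 12201 genes, 2753 rose and 2861 fell in it. In SUDHL4, 10 rose and 8 fell, against 29.6% and 37.1% of all genes (66.7% called). With FPKM rescaled to the sum of named loci other than small RNA, 9 rose and 11 fell in SUDHL4, and with median-ratio scaling 13 rose and 6 fell. In Farage, 11 rose and 7 fell, against 29.2% and 38% of all genes (67.2% called).

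Averaged over the 3 lines with equal weight, 12 members rose and 7 fell, against 35.7% and 44.9% of all genes (80.6% called). The median member differed by 0.07 on the log2(FPKM + 1) scale and the median gene by -0.08. By line, the median member differed by 0.19 in SUDHL6, 0.03 in SUDHL4 and 0.14 in Farage, against -0.01, -0.04 and -0.07 for all genes. Under the scaling to the sum without small RNA, the members' median was -0.14 in SUDHL4, where the median of all genes moved to -0.15, and -0.01 on average. Since most genes were called in these comparisons, counts of members say little by themselves, and the values of each enzyme are given next. In cultured cells a lower FPKM cannot tell fewer cells with a transcript from less transcript per cell.

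All 3 BCL6.inh libraries lay above all 3 DMSO libraries for 12 members in SUDHL6 (27.7% of all genes), 12 in SUDHL4 (35.7%) and 14 in Farage (35.6%). They lay below for 8 members in SUDHL6 (30.4% of all genes), 9 in SUDHL4 (42.3%) and 8 in Farage (44.8%). The members that rose in all 3 lines numbered 10: UBE2A, UBE2B, UBE2D3, UBE2H, UBE2K, UBE2Q1, UBE2R2, UBE2V2, UBE2W and UBE2Z, which is 38.5% of the tested members, against 18.3% of all genes. UBE2D4, UBE2E3, UBE2G2, UBE2L6 and UBE2T fell in all 3 lines, 19.2% of the members against 21.1% of all genes. UBE2E1 rose in 1 line and fell in another, a pattern of 6.05% of all genes. UBE2E2 and UBE2L3 were among the 3 members (11.5%) called in no line, as were 11.5% of all genes, and the other 7 members were called in 1 or 2 lines.

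**Figure D1:**
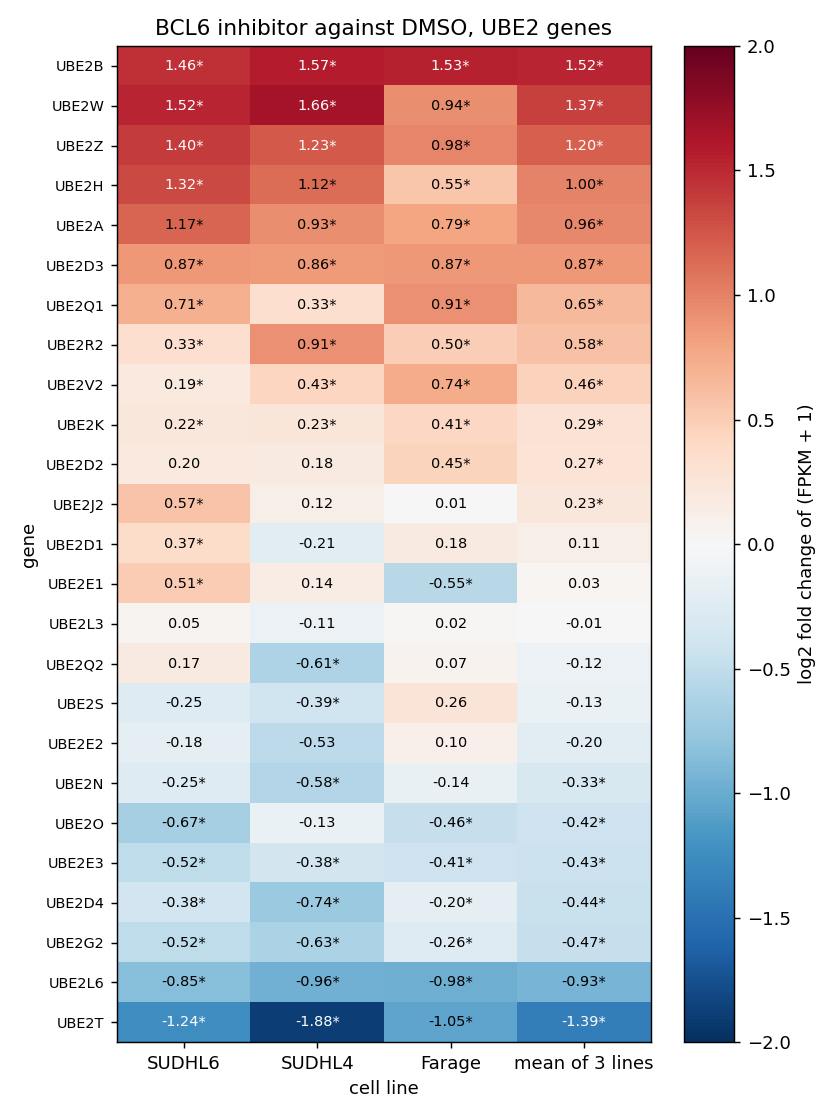
Log2 fold change of (FPKM + 1), BCL6 inhibitor against DMSO, for 25 tested UBE2 genes (rows) in each line and as the mean of the 3 lines (columns); red is higher and blue lower under the inhibitor, and an asterisk marks an adjusted p under 0.05. The values run from 1.52 for UBE2B to -1.39 for UBE2T in the mean column, and UBE2E1 has opposite colours in SUDHL6 and Farage.

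Among the enzymes of DNA damage repair and chromatin, UBE2A and UBE2B rose in every line and UBE2T fell in every line. UBE2A and UBE2B are the human counterparts of yeast Rad6 and attach single ubiquitins to the replication clamp PCNA with the ligase RAD18 and to a core histone with RNF20 and RNF40. UBE2T is the E2 of the Fanconi anaemia pathway, which it serves with the ligase FANCL.

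UBE2B (chr5:133619033-133729594, hg19) had 42.0, 29.2 and 32.5 FPKM in SUDHL6 BCL6.inh libraries, against 12.2, 11.9 and 11.2 FPKM in SUDHL6 DMSO libraries. In SUDHL4 it had 77.4, 83.1 and 70.9 FPKM under the inhibitor and 23.6, 22.6 and 29.9 FPKM under DMSO. In Farage the values were 57.6, 61.5 and 58.8 FPKM under the inhibitor and 18.3, 21.3 and 20.1 FPKM under DMSO. In no line did the groups overlap, and the lowest BCL6.inh library of each line was over its highest DMSO library by a wide margin. The log2 fold changes of (FPKM + 1) were 1.46 ± 0.12 (SE) in SUDHL6 (adjusted p = 1.6e-07), 1.57 ± 0.12 in SUDHL4 (adjusted p = 5.09e-08) and 1.53 ± 0.12 in Farage (adjusted p = 6.51e-08). A difference in response between lines was not detected for UBE2B (moderated F test, adjusted p = 0.846). A second row of the same span, named for CDKL3 and UBE2B together, averaged 2.25 FPKM and is not part of these values.

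UBE2A (chrX:118708206-118718642) had 81.9, 64.2 and 82.9 FPKM in SUDHL6 BCL6.inh libraries, against 30.5, 32.4 and 37.2 FPKM in SUDHL6 DMSO libraries. Its values in SUDHL4 were 97.9, 103 and 91.2 FPKM with inhibitor and 48.9, 48.5 and 54.8 FPKM with DMSO. Those in Farage were 125, 125 and 132 FPKM with inhibitor and 70.2, 74.9 and 75.5 FPKM with DMSO. The treated libraries were the higher ones in each line, without overlap. UBE2A rose by 1.17 ± 0.10 in SUDHL6, 0.93 ± 0.10 in SUDHL4 and 0.79 ± 0.10 in Farage on the log2 scale (adjusted p = 1.48e-07, 8.17e-07 and 4.56e-06). The difference between lines missed the threshold (adjusted p = 0.0739). It passed without SUDHL6 BCL6.inh replicate 2 (0.00546), without SUDHL6 DMSO replicate 3 (0.0278) and under the scaling to the sum without small RNA (0.00917). Farage minus SUDHL6 was -0.38 in response (adjusted p = 0.0427), a call that held in 12 of 27 other settings.

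UBE2T (chr1:202300785-202311094) had 12.0, 24.6 and 37.1 FPKM in SUDHL6 BCL6.inh libraries and 49.2, 51.7 and 62.7 FPKM in SUDHL6 DMSO libraries. In SUDHL4, BCL6.inh libraries had 12.8, 13.7 and 13.3 FPKM and DMSO libraries 52.8, 53.3 and 48.6 FPKM. In Farage, BCL6.inh libraries had 17.7, 17.1 and 18.1 FPKM and DMSO libraries 34.1, 42.0 and 37.0 FPKM. Every treated library was below every DMSO library of its line, and the SUDHL6 BCL6.inh libraries spread most widely, with replicate 1 lowest and replicate 3 highest. UBE2T fell, with log2 fold changes of -1.24 ± 0.26 in SUDHL6, -1.88 ± 0.26 in SUDHL4 and -1.05 ± 0.26 in Farage (adjusted p = 0.000656, 1.35e-05 and 0.00218). Without SUDHL6 BCL6.inh replicate 1 the SUDHL6 value was -0.82 (adjusted p = 0.000198). The difference in response between lines was not called (adjusted p = 0.138), but was without SUDHL6 BCL6.inh replicate 1 (0.000763), without SUDHL6 BCL6.inh replicate 3 (0.0338) and without both SUDHL6 replicate 3 libraries (0.0337).

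**Figure D2:**
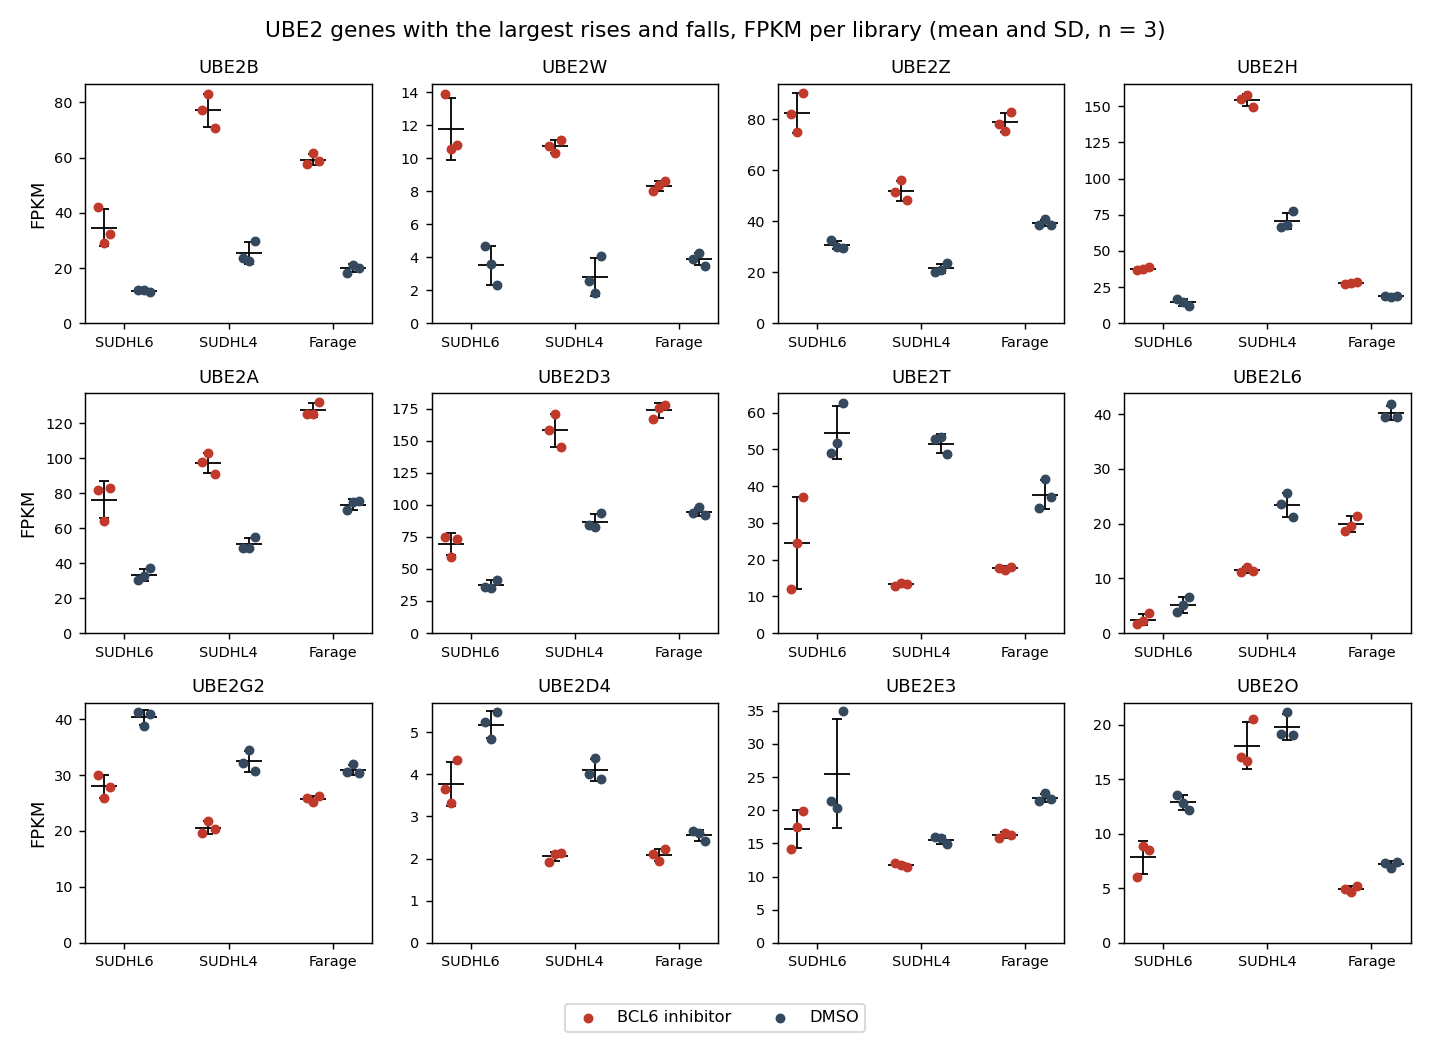
FPKM per library for the 6 UBE2 genes with the largest mean rise and the 6 with the largest mean fall, BCL6 inhibitor in red and DMSO in dark blue to its right within each line; bars give the mean and SD of 3 libraries, and each panel has its own linear axis from 0. Red points lie above the dark ones for UBE2B, UBE2W, UBE2Z, UBE2H, UBE2A and UBE2D3 in all 3 lines, while for UBE2O the 2 groups overlap in SUDHL4.

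Among the enzymes that place a first ubiquitin or build chains with many ligases, UBE2W, UBE2H and UBE2D3 rose in all 3 lines, and UBE2D4 and UBE2E3 fell in all 3. UBE2W attaches ubiquitin to the N-terminus of a protein, UBE2H serves the CTLH ligase complex, and UBE2D3 is the general-purpose E2 most often paired with RING ligases. UBE2D4 is the least studied of the UBE2D enzymes, and UBE2E1, UBE2E2 and UBE2E3 are near relatives of UBE2D with an N-terminal extension.

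UBE2W (chr8:74692332-74791145) had 13.9, 10.5 and 10.8 FPKM in SUDHL6 BCL6.inh libraries, against 4.67, 3.56 and 2.30 FPKM in SUDHL6 DMSO libraries. Under the inhibitor SUDHL4 had 10.8, 10.3 and 11.1 FPKM, and under DMSO 2.54, 1.84 and 4.06 FPKM. Farage had 7.99, 8.38 and 8.61 FPKM under the inhibitor and 3.90, 4.26 and 3.49 FPKM under DMSO. The DMSO libraries of SUDHL6 and SUDHL4 varied among themselves more than those of Farage, yet none reached a treated library. UBE2W rose by 1.52 ± 0.20, 1.66 ± 0.20 and 0.94 ± 0.20 on the log2 scale in SUDHL6, SUDHL4 and Farage (adjusted p = 1.02e-05, 3.6e-06 and 0.000717). Its difference between lines was not called (adjusted p = 0.0836). It was called with the replicate block (0.0344), with a pseudocount of 5 (0.0446), without SUDHL6 DMSO replicate 1 (0.0369) and without SUDHL4 DMSO replicate 3 (0.015).

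UBE2H (chr7:129470573-129592800) had 36.6, 37.4 and 38.7 FPKM in SUDHL6 BCL6.inh libraries and 17.1, 14.6 and 12.1 FPKM in SUDHL6 DMSO libraries. SUDHL4 libraries had 155, 158 and 149.5 FPKM with inhibitor and 66.4, 68.2 and 77.2 FPKM with DMSO, the highest levels of the 3 lines. Farage libraries had 27.0, 27.7 and 28.5 FPKM with inhibitor and 18.7, 18.4 and 18.7 FPKM with DMSO. Groups were apart in each line. The rise was 1.32 ± 0.09 in SUDHL6, 1.12 ± 0.09 in SUDHL4 and 0.55 ± 0.09 in Farage (adjusted p = 3.34e-08, 7.25e-08 and 7.14e-05). The response was smaller in Farage: Farage minus SUDHL6 was -0.77 ± 0.13 (adjusted p = 0.000334) and Farage minus SUDHL4 -0.56 ± 0.13 (adjusted p = 0.00305).

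UBE2D3 (chr4:103707322-103790050) had 75.1, 59.3 and 73.0 FPKM in SUDHL6 BCL6.inh libraries, against 35.5, 34.8 and 41.6 FPKM in SUDHL6 DMSO libraries. The SUDHL4 values were 158, 171 and 145 FPKM under the inhibitor and 83.9, 82.7 and 93.3 FPKM under DMSO. The Farage values were 167, 176 and 178 FPKM under the inhibitor and 93.3, 98.0 and 92.2 FPKM under DMSO. Treated libraries were higher without overlap in each line, and the rise was nearly equal: 0.87, 0.86 and 0.87 on the log2 scale, each ± 0.09 (adjusted p = 1.62e-06, 1.42e-06 and 1.3e-06). The difference in response had an adjusted p of 0.997.

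UBE2D4 (chr7:43966035-44058842) had the lowest mean over the 18 libraries of the tested members, with 3.64, 3.31 and 4.33 FPKM in SUDHL6 BCL6.inh libraries and 5.24, 4.82 and 5.47 FPKM in SUDHL6 DMSO libraries. SUDHL4 had 1.93, 2.10 and 2.12 FPKM under the inhibitor, against 4.01, 4.39 and 3.89 FPKM under DMSO. Farage had 2.11, 1.94 and 2.22 FPKM under the inhibitor, against 2.65, 2.61 and 2.41 FPKM under DMSO. The treated libraries were the lower ones everywhere, and the gap was narrowest in Farage. The log2 fold change was -0.38 ± 0.08 in SUDHL6, -0.74 ± 0.08 in SUDHL4 and -0.20 ± 0.08 in Farage (adjusted p = 0.000599, 9.9e-07 and 0.0323). In Farage the call was lost without BCL6.inh replicate 1 or 2 or DMSO replicate 1 or 2, with log2 fold changes of -0.21 to -0.17 and adjusted p of 0.0635 to 0.116. SUDHL4 minus SUDHL6 was -0.36 ± 0.11 (adjusted p = 0.0219), a call that held in 22 of 26 other settings. The row shares its span with one for POLR2J4, which averaged 8.05 FPKM.

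UBE2E3 (chr2:181845112-181940960) had 14.2, 17.5 and 19.9 FPKM in SUDHL6 BCL6.inh libraries and 21.4, 20.3 and 35.0 FPKM in SUDHL6 DMSO libraries. SUDHL4 had 12.0, 11.8 and 11.5 FPKM with inhibitor and 15.9, 15.8 and 14.9 FPKM with DMSO. Farage had 15.8, 16.6 and 16.2 FPKM with inhibitor and 21.5, 22.5 and 21.7 FPKM with DMSO. The groups were apart in each line, and SUDHL6 DMSO replicate 3 was far above the other DMSO libraries. UBE2E3 fell, with log2 fold changes of -0.52 ± 0.15 in SUDHL6, -0.38 ± 0.15 in SUDHL4 and -0.41 ± 0.15 in Farage (adjusted p = 0.00898, 0.0434 and 0.0283). Without SUDHL6 DMSO replicate 3 the SUDHL6 value was -0.28 (adjusted p = 0.025). The SUDHL4 call was lost when any of 13 libraries was left out (adjusted p 0.0509 to 0.0994) and the Farage call when any Farage library was (0.0504 to 0.0719); the mean over lines, -0.43 ± 0.09, had an adjusted p of 0.000389.

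UBE2E1 (chr3:23847384-23933543) was the member whose response differed most clearly between lines. It had 14.9, 15.2 and 18.4 FPKM in SUDHL6 BCL6.inh libraries and 11.7, 9.99 and 11.4 FPKM in SUDHL6 DMSO libraries, without overlap. It had 53.9, 56.8 and 48 FPKM in SUDHL4 BCL6.inh libraries and 49.5, 46.9 and 46.7 FPKM in SUDHL4 DMSO libraries, which overlapped. In Farage it had 35.7, 36.6 and 38.1 FPKM under the inhibitor and 50.6, 58.3 and 54.5 FPKM under DMSO, again without overlap but in the other direction. UBE2E1 thus rose by 0.51 ± 0.09 in SUDHL6 (adjusted p = 0.000129) and fell by 0.55 ± 0.09 in Farage (adjusted p = 5.85e-05), with 0.14 ± 0.09 in SUDHL4 (adjusted p = 0.162). Farage minus SUDHL6 was -1.06 ± 0.12 (adjusted p = 1.59e-05), Farage minus SUDHL4 -0.69 ± 0.12 (adjusted p = 0.000552) and SUDHL4 minus SUDHL6 -0.37 ± 0.12 (adjusted p = 0.0353). The SUDHL4 minus SUDHL6 call held in 18 of 27 other settings (adjusted p up to 0.0893), and both calls with Farage held in all 27.

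Of the remaining general enzymes, UBE2D2, a close relative of UBE2D3, rose in Farage, where it averaged 82.6 ± 3.45 FPKM under the inhibitor and 60.4 ± 2.43 FPKM under DMSO (SD, n = 3 each; log2 fold change 0.45, adjusted p = 0.00149). In SUDHL6 its difference of 0.20 had an adjusted p of 0.112, 0.0157 with the replicate numbers as a block and 0.0336 without both replicate 3 libraries. In SUDHL4 UBE2D2 averaged 47.4 ± 2.26 FPKM with inhibitor and 41.7 ± 0.929 FPKM with DMSO, without overlap, and its log2 fold change of 0.18 missed the threshold (adjusted p = 0.141). It passed on SUDHL4 libraries alone (0.0141), with median-ratio scaling (0.26, adjusted p = 0.0144), with the replicate block (0.0221) and without both SUDHL6 replicate 3 libraries (0.0173). The difference between lines had an adjusted p of 0.225, 0.0369 with the block and 0.032 without both SUDHL6 replicate 3 libraries. UBE2D1 averaged 6.53 ± 1.70 FPKM with inhibitor and 4.75 ± 0.331 FPKM with DMSO in SUDHL6 (log2 fold change 0.37, adjusted p = 0.0442), a call that was lost without any of 13 libraries; without SUDHL6 BCL6.inh replicate 1 the value was 0.19 (adjusted p = 0.235). In SUDHL4 UBE2D1 averaged 5.01 ± 1.26 FPKM with inhibitor and 5.87 ± 0.112 FPKM with DMSO, a log2 fold change of -0.21 (adjusted p = 0.23). That value was -0.34 under the scaling to the sum without small RNA (adjusted p = 0.0236) and -0.36 without SUDHL4 BCL6.inh replicate 2 (adjusted p = 0.0473). In Farage it averaged 10.1 ± 0.398 FPKM with inhibitor and 8.81 ± 0.906 FPKM with DMSO (log2 fold change 0.18, adjusted p = 0.297). UBE2L3, which works with HECT and RBR ligases, averaged 18.2 ± 1.32 and 17.6 ± 1.75 FPKM with inhibitor and DMSO in SUDHL6, 36.1 ± 1.8 and 39.0 ± 0.662 FPKM in SUDHL4, and 40.7 ± 0.749 and 40.0 ± 1.39 FPKM in Farage. Its mean log2 fold change was -0.01 ± 0.04 (adjusted p = 0.783). The SUDHL4 difference of -0.11 passed with the replicate block (0.0498) and without both SUDHL6 replicate 3 libraries (0.0447). Under the scaling to the sum without small RNA it was -0.275 (adjusted p = 0.00466), and the UBE2L3 mean over lines was -0.105 (adjusted p = 0.0363). UBE2E2 varied between libraries of a group, from 8.75 to 23 FPKM among SUDHL6 BCL6.inh libraries, and passed the test in no line. In SUDHL4 all treated libraries lay below the DMSO libraries, with means of 9.27 ± 1.83 FPKM under the inhibitor and 13.8 ± 2.63 FPKM under DMSO and a log2 fold change of -0.53 (adjusted p = 0.103). That value passed with the replicate block (0.0276), on SUDHL4 libraries alone (0.049), without SUDHL6 BCL6.inh replicate 3 (0.0392) and without both SUDHL6 replicate 3 libraries (0.0424). The UBE2E2 mean log2 fold change over lines was -0.20 ± 0.16 (adjusted p = 0.247, and 0.0487 without SUDHL6 BCL6.inh replicate 2).

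UBE2R2 and UBE2K, which build chains of the kind that direct proteins to the proteasome, rose in all 3 lines. UBE2R2 is the partner of cullin-RING ligases and a paralog of CDC34. UBE2R2 (chr9:33816531-33920507) had 45.5, 49.8 and 41.1 FPKM in SUDHL6 BCL6.inh libraries and 33.0, 36.8 and 37.5 FPKM in SUDHL6 DMSO libraries. SUDHL4 had 50.8, 53.7 and 50.7 FPKM with inhibitor and 25.2, 27.0 and 29 FPKM with DMSO, and Farage 26.8, 27.8 and 28.7 FPKM with inhibitor and 18.8, 19.5 and 19.8 FPKM with DMSO. The groups were apart in each line. Log2 fold changes were 0.33 ± 0.07, 0.91 ± 0.07 and 0.50 ± 0.07 in SUDHL6, SUDHL4 and Farage (adjusted p = 0.000951, 6.71e-08 and 2.55e-05). SUDHL4 exceeded SUDHL6 in response by 0.58 ± 0.10 (adjusted p = 0.000757). UBE2K averaged 19.0 ± 1.69 and 16.1 ± 0.524 FPKM with inhibitor and DMSO in SUDHL6, 27.3 ± 1.00 and 23 ± 0.976 FPKM in SUDHL4, and 24.9 ± 0.731 and 18.5 ± 0.541 FPKM in Farage (log2 fold changes 0.22, 0.23 and 0.41). The SUDHL6 call of UBE2K was lost without both replicate 3 libraries (log2 fold change 0.14, adjusted p = 0.0579), while its difference between lines was called without them (0.0273, against 0.131 with all libraries). Under the scaling to the sum without small RNA, UBE2K was called in neither SUDHL6 (0.15, adjusted p = 0.128) nor SUDHL4 (0.07, adjusted p = 0.49).

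UBE2N and UBE2V2 form one enzyme. UBE2N carries the ubiquitin, and UBE2V2 lacks the catalytic cysteine and positions the acceptor. Together they build chains that act in repair rather than in degradation. Their transcripts moved apart under the inhibitor: UBE2N fell and UBE2V2 rose on average. UBE2V2 (chr8:48920935-49013888) had 67.3, 67.4 and 73.0 FPKM in SUDHL6 BCL6.inh libraries and 60.0, 54.4 and 67.8 FPKM in SUDHL6 DMSO libraries, which overlapped. SUDHL4 had 96.7, 93.9 and 88.8 FPKM with inhibitor and 71.8, 62.2 and 72.4 FPKM with DMSO, and Farage 59.7, 65.3 and 63.4 FPKM with inhibitor and 35.8, 38.9 and 36.6 FPKM with DMSO, both without overlap. It rose by 0.43 ± 0.08 in SUDHL4 (adjusted p = 0.000216) and 0.74 ± 0.08 in Farage (adjusted p = 1.28e-06). The SUDHL6 value of 0.19 ± 0.08 passed narrowly (adjusted p = 0.0477), and the call was lost when any of 16 libraries was left out (adjusted p 0.0501 to 0.226); without SUDHL6 DMSO replicate 2 it was 0.12. Farage exceeded SUDHL6 in response by 0.55 ± 0.11 (adjusted p = 0.0017).

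UBE2N (chr12:93771642-93836026) had 37.8, 31.9 and 38.1 FPKM in SUDHL6 BCL6.inh libraries and 39.5, 39.5 and 50.6 FPKM in SUDHL6 DMSO libraries. SUDHL4 had 67.6, 69.0 and 63.6 FPKM with inhibitor and 104, 97.0 and 100.2 FPKM with DMSO. Farage had 47.6, 48.1 and 51.8 FPKM with inhibitor and 53.4, 56.4 and 53.1 FPKM with DMSO. Treated libraries were the lower ones in each line, by a small gap in SUDHL6 and Farage. UBE2N fell, with log2 fold changes of -0.58 ± 0.09 in SUDHL4 (adjusted p = 4.28e-05) and -0.25 ± 0.09 in SUDHL6 (adjusted p = 0.0228), beside -0.14 ± 0.09 in Farage (adjusted p = 0.18). The Farage value passed on Farage libraries alone (0.0279) and under the scaling to the sum without small RNA (-0.19, adjusted p = 0.0102). The SUDHL6 call was lost without BCL6.inh replicate 2 (-0.17, adjusted p = 0.112) and without DMSO replicate 3 (-0.14, adjusted p = 0.125), and without both replicate 3 libraries (-0.18, adjusted p = 0.0539). Its span overlaps that of NUDT4, whose row averaged 37.8 FPKM.

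Of the enzymes of endoplasmic reticulum associated degradation, UBE2G2 fell in all 3 lines and UBE2J2 rose in SUDHL6. UBE2G2 is recruited to the reticulum by its ligases, and UBE2J2 sits in the reticulum membrane by a tail anchor. UBE2G2 (chr21:46188495-46222059) had 30.1, 25.9 and 27.9 FPKM in SUDHL6 BCL6.inh libraries and 41.3, 38.8 and 40.9 FPKM in SUDHL6 DMSO libraries. SUDHL4 had 19.6, 21.8 and 20.4 FPKM under the inhibitor and 32.1, 34.5 and 30.8 FPKM under DMSO, and Farage 25.8, 25.2 and 26.3 FPKM under the inhibitor and 30.5, 32.0 and 30.4 FPKM under DMSO. No treated library reached a DMSO library of its line. Log2 fold changes were -0.52 ± 0.06, -0.63 ± 0.06 and -0.26 ± 0.06 in SUDHL6, SUDHL4 and Farage (adjusted p = 4.4e-06, 4.51e-07 and 0.00183). The fall was smaller in Farage than in SUDHL4, by 0.37 ± 0.09 (adjusted p = 0.00373). UBE2J2 averaged 26.7 ± 0.707 FPKM in SUDHL6 BCL6.inh libraries and 17.6 ± 1.70 FPKM in SUDHL6 DMSO libraries (SD, n = 3 each), a log2 fold change of 0.57 (adjusted p = 1.35e-05). In SUDHL4 it averaged 13.9 ± 0.512 and 12.7 ± 0.415 FPKM and in Farage 13.1 ± 1.3 and 13.1 ± 0.853 FPKM with inhibitor and DMSO, with log2 fold changes of 0.12 and 0.01 (adjusted p = 0.172 and 0.972). The SUDHL4 value passed with median-ratio scaling (0.20, adjusted p = 0.0383).

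UBE2S, which extends ubiquitin chains on substrates of the anaphase promoting complex, was among the most abundant members, and its call depended on the setting in every line. UBE2S (chr19:55907961-55920537) had 86.1, 63.2 and 80.7 FPKM in SUDHL6 BCL6.inh libraries and 90.2, 92.8 and 89.2 FPKM in SUDHL6 DMSO libraries. SUDHL4 had 67.3, 92.4 and 54.0 FPKM with inhibitor and 94.5, 97.3 and 83.6 FPKM with DMSO, which overlapped, since treated replicate 2 stood among the DMSO libraries. Farage had 54.8, 56.7 and 59.6 FPKM with inhibitor and 45.8, 51.2 and 45.4 FPKM with DMSO. UBE2S fell in SUDHL4, with a log2 fold change of -0.39 ± 0.15 (adjusted p = 0.0323). The value was -0.60 without SUDHL4 BCL6.inh replicate 2 (adjusted p = 0.00076) and -0.21 without replicate 3 (adjusted p = 0.187), and the call was also lost without BCL6.inh replicate 1, DMSO replicate 1 or DMSO replicate 2 (log2 fold changes down to -0.37). The other 2 lines gave -0.25 ± 0.15 in SUDHL6 and 0.26 ± 0.15 in Farage (adjusted p = 0.162 and 0.142), with groups that did not overlap. The Farage value passed on Farage libraries alone (0.00763) and without SUDHL4 BCL6.inh replicate 2 (0.0489), and the SUDHL6 value under the scaling to the sum without small RNA (-0.33, adjusted p = 0.0224). The SUDHL4 call was also lost on SUDHL4 libraries alone (0.125), with median-ratio scaling (0.0746) and with no filter on low values (0.0702).

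Of the E2 enzymes that carry FAT10 and ISG15, UBE2Z rose and UBE2L6 fell in all 3 lines. UBE2Z is charged by the E1 enzyme UBA6 and carries FAT10 as well as ubiquitin, and UBE2L6 carries ISG15, the ubiquitin-like protein of the interferon response. UBE2Z (chr17:46984843-47023050) had 82.2, 74.9 and 90.5 FPKM in SUDHL6 BCL6.inh libraries and 32.7, 29.7 and 29.6 FPKM in SUDHL6 DMSO libraries. SUDHL4 had 51.4, 56 and 48.3 FPKM with inhibitor and 20.2, 21 and 23.6 FPKM with DMSO, and Farage 78.0, 75.5 and 83.0 FPKM with inhibitor and 38.7, 40.7 and 38.6 FPKM with DMSO. The treated libraries of each line were all above its DMSO libraries. UBE2Z rose by 1.40 ± 0.08 in SUDHL6, 1.23 ± 0.08 in SUDHL4 and 0.98 ± 0.08 in Farage (adjusted p = 8.52e-09, 1.17e-08 and 7.84e-08). Farage minus SUDHL6 was -0.41 ± 0.11 in response (adjusted p = 0.011). The test over all 3 lines passed (adjusted p = 0.0198), but not without both SUDHL6 replicate 3 libraries (0.0506) or without Farage BCL6.inh replicate 2 (0.0528). The UBE2Z span overlaps that of SNF8, whose row averaged 39.2 FPKM, and the sources used here do not say how reads of the overlap were divided.

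UBE2L6 (chr11:57319128-57335803) had 1.65, 2.13 and 3.59 FPKM in SUDHL6 BCL6.inh libraries and 3.81, 5.03 and 6.62 FPKM in SUDHL6 DMSO libraries. SUDHL4 had 11.2, 12.1 and 11.3 FPKM with inhibitor and 23.5, 25.5 and 21.2 FPKM with DMSO. Farage had 18.6, 19.6 and 21.5 FPKM with inhibitor and 39.4, 41.7 and 39.5 FPKM with DMSO. Levels differed widely between lines, but in each the treated libraries were lower without overlap, narrowly so in SUDHL6. It fell, with log2 fold changes of -0.85 ± 0.17, -0.96 ± 0.17 and -0.98 ± 0.17 in SUDHL6, SUDHL4 and Farage (adjusted p = 0.000673, 0.000211 and 0.000173), and the difference between lines had an adjusted p of 0.876.

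Of the large or atypical enzymes, UBE2Q1 rose in all 3 lines, UBE2Q2 fell in SUDHL4 and UBE2O fell in SUDHL6 and Farage. UBE2O combines E2 and E3 activity in one long protein and is known for clearing unassembled proteins from maturing red cells, while UBE2Q1 and UBE2Q2 carry long N-terminal regions and are less well studied. UBE2Q1 (chr1:154521051-154531120) had 40.5, 33.2 and 38.2 FPKM in SUDHL6 BCL6.inh libraries and 22.7, 22.1 and 22.1 FPKM in SUDHL6 DMSO libraries. SUDHL4 had 33.8, 37.1 and 32.9 FPKM with inhibitor and 26.9, 27.3 and 27.5 FPKM with DMSO, and Farage 44.8, 47.2 and 47.1 FPKM with inhibitor and 23.6, 24.4 and 24.6 FPKM with DMSO. Groups were apart in each line, with the narrowest gap in SUDHL4. The rise was 0.71 ± 0.06, 0.33 ± 0.06 and 0.91 ± 0.06 (adjusted p = 3.39e-07, 0.000349 and 2.2e-08), and Farage exceeded SUDHL4 by 0.58 ± 0.09 (adjusted p = 0.000213).

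UBE2Q2 (chr15:76135627-76193407) had 5.73, 6.14 and 7.63 FPKM in SUDHL6 BCL6.inh libraries and 5.60, 4.69 and 6.67 FPKM in SUDHL6 DMSO libraries, which overlapped. SUDHL4 had 4.16, 3.55 and 4.53 FPKM with inhibitor and 6.62, 6.97 and 6.59 FPKM with DMSO, without overlap. Farage had 10.5, 10.9 and 10.6 FPKM with inhibitor and 10.1, 10.0 and 10.2 FPKM with DMSO, close together but without overlap. Only the SUDHL4 fall of -0.61 ± 0.11 passed (adjusted p = 0.000157), beside 0.17 ± 0.11 in SUDHL6 and 0.07 ± 0.11 in Farage (adjusted p = 0.173 and 0.579). The SUDHL6 value passed without SUDHL6 DMSO replicate 3 (0.28, adjusted p = 0.0307). The mean over lines, -0.12, was not called. It passed with the replicate block (0.0426) and without both SUDHL6 replicate 3 libraries (0.0273). It also passed without SUDHL6 BCL6.inh replicate 3 (0.0204), without SUDHL6 DMSO replicate 2 (0.0215) and under the scaling to the sum without small RNA (-0.19, adjusted p = 0.0175). SUDHL4 minus SUDHL6 was -0.79 ± 0.15 in response (adjusted p = 0.00148).

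UBE2O (chr17:74385371-74449288) had 6.07, 8.87 and 8.55 FPKM in SUDHL6 BCL6.inh libraries and 13.6, 12.9 and 12.2 FPKM in SUDHL6 DMSO libraries. SUDHL4 had 17.0, 16.7 and 20.5 FPKM with inhibitor and 19.1, 21.1 and 19.0 FPKM with DMSO, which overlapped. Farage had 4.95, 4.63 and 5.24 FPKM with inhibitor and 7.30, 6.87 and 7.38 FPKM with DMSO, the lowest levels of the 3 lines. UBE2O fell, with log2 fold changes of -0.67 ± 0.11 in SUDHL6 and -0.46 ± 0.11 in Farage (adjusted p = 0.000108 and 0.00196), beside -0.13 ± 0.11 in SUDHL4 (adjusted p = 0.343). The difference between lines passed (adjusted p = 0.0286), but not without SUDHL6 DMSO replicate 1, SUDHL4 BCL6.inh replicate 3, SUDHL4 DMSO replicate 1 or SUDHL4 DMSO replicate 3 (0.0566 to 0.0755). It also missed under the scaling to the sum without small RNA (0.233), with the replicate block (0.0613) and with no filter on low values (0.0521).

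The 8 members that were not tested were at or near 0. UBE2DNL reached 0.741 FPKM, UBE2Q2L 0.577, UBE2NL 0.289, UBE2MP1 0.161, UBE2E4P 0.106 and UBE2U 0.0435 FPKM in their highest library, and UBE2Q2P2 and UBE2QL1 were listed at 0 throughout. UBE2G1, UBE2M, UBE2F, UBE2V1, UBE2J1 and the pseudogene UBE2Q2P1 stood only in rows merged with neighbouring genes and were not counted. The sources used here do not say how the authors divided reads that match several UBE2 genes or their processed copies.

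The response differed between lines for 13 of 26 members by the moderated F test, against 52.5% of all genes. The smallest adjusted p belonged to UBE2E1 (3.06e-05), UBE2Q1 (0.000403), UBE2H (0.000499), UBE2R2 (0.000921) and UBE2Q2 (0.00124). No 1 line was the stronger responder throughout. The rise of UBE2J2 was larger in SUDHL6, that of UBE2R2 in SUDHL4 and that of UBE2V2 in Farage than in both other lines (adjusted p of at most 0.0438 for each pair). UBE2H rose less in Farage, and its SUDHL4 minus SUDHL6 difference of -0.20 was not called (adjusted p = 0.243). UBE2Q1 rose less in SUDHL4, and its Farage minus SUDHL6 difference of 0.20 was not called (adjusted p = 0.107). Farage minus SUDHL6 was positive and past the threshold for 2 members and negative for 5, against 14.6% and 20.2% of all genes. SUDHL4 minus SUDHL6 was positive for 2 and negative for 5, against 14.1% and 17.8%. Farage minus SUDHL4 was positive for 7 and negative for 3, against 17.4% and 18.9% (36.3% called).

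**Figure D3:**
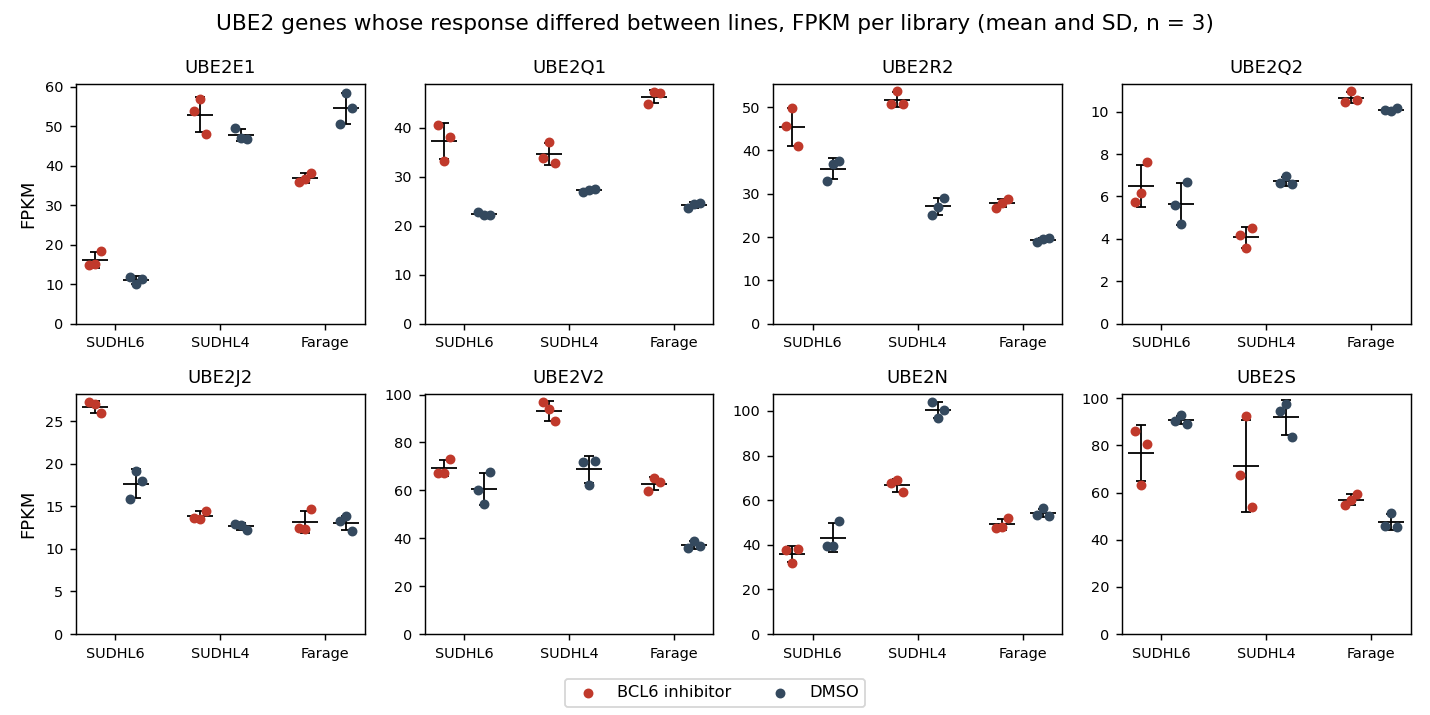
FPKM per library for 8 UBE2 genes among those whose response differed between lines, BCL6 inhibitor in red and DMSO in dark blue to its right within each line, with the mean and SD of 3 libraries and a linear axis from 0 in each panel. For UBE2E1 the red points lie above the dark ones in SUDHL6 and below them in Farage; for UBE2S the red points of SUDHL4 run from 54 to 92.4 FPKM.

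Under DMSO the lines already differed in most members. By the F test 23 of 26 members differed between the DMSO groups, against 83.5% of all genes, and UBE2E2, UBE2T and UBE2W did not pass (adjusted p = 0.0899, 0.144 and 0.187). UBE2L6 averaged 40.2 ± 1.33 FPKM in Farage, 23.4 ± 2.17 FPKM in SUDHL4 and 5.16 ± 1.41 FPKM in SUDHL6 (SD, n = 3 each), with Farage above SUDHL6 by 2.77 ± 0.17 on the log2 scale (adjusted p = 2.83e-09). UBE2H averaged 70.6 ± 5.82 FPKM in SUDHL4, 18.6 ± 0.136 FPKM in Farage and 14.6 ± 2.5 FPKM in SUDHL6, and all 3 pairs differed (adjusted p of at most 0.00341). UBE2E1 averaged 54.5 ± 3.85 FPKM in Farage and 47.7 ± 1.59 FPKM in SUDHL4, a pair that missed the threshold (adjusted p = 0.0759), and 11 ± 0.928 FPKM in SUDHL6. Its Farage minus SUDHL4 difference of 0.19 was called in 5 of 26 other settings, with values of 0.14 to 0.68 over all 26. UBE2N averaged 100.4 ± 3.48 FPKM in SUDHL4, 54.3 ± 1.81 FPKM in Farage and 43.2 ± 6.38 FPKM in SUDHL6.

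Pair by pair, Farage was above SUDHL6 for 14 members and below for 8 under DMSO (33.1% and 33.7% of all genes, 66.8% called). SUDHL4 was above SUDHL6 for 12 and below for 6 (30.4% and 33.5%, 63.9% called), and Farage above SUDHL4 for 7 and below for 10 (33.1% and 30.7%, 63.7% called). Pairs with SUDHL4 depended on the scaling. Scaled to the sum without small RNA, 2265 of all 12201 genes were higher and 6165 lower in SUDHL4 than in SUDHL6. In Farage against SUDHL4, 6785 were then higher and 1857 lower. The Farage minus SUDHL4 value of UBE2B, -0.33 in the main fit, ran from -0.40 to 0.15 over the alternatives. UBE2S and UBE2V2 were lower in Farage than in both other lines. Farage minus SUDHL6 was -0.92 for UBE2S and -0.69 for UBE2V2, and Farage minus SUDHL4 -0.94 for UBE2S and -0.87 for UBE2V2. The most abundant members differed with the line and the treatment. In SUDHL6 UBE2Z, UBE2S and UBE2A led under the inhibitor (82.5 ± 7.81, 76.7 ± 12.0 and 76.3 ± 10.5 FPKM) and UBE2S, UBE2V2 and UBE2T under DMSO (90.7 ± 1.85, 60.7 ± 6.70 and 54.5 ± 7.21 FPKM). In SUDHL4 UBE2D3, UBE2H and UBE2A led under the inhibitor (158 ± 13, 154 ± 4.20 and 97.4 ± 5.92 FPKM) and UBE2N, UBE2S and UBE2D3 under DMSO (100.4 ± 3.48, 91.8 ± 7.22 and 86.6 ± 5.80 FPKM). In Farage UBE2D3, UBE2A and UBE2D2 led under both treatments.

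Summed over the 26 members, FPKM were higher under the inhibitor in each line. SUDHL6 summed to 860.5, 796 and 904 FPKM under the inhibitor, against 667, 667 and 740.5 FPKM under DMSO. SUDHL4 summed to 1179, 1254 and 1117 FPKM under the inhibitor, against 955, 945.5 and 968 FPKM under DMSO. Farage summed to 1052, 1085 and 1117 FPKM under the inhibitor, against 810.3, 875.5 and 830.2 FPKM under DMSO. The treated libraries did not overlap the DMSO libraries in any line, and the ratio of means was 1.23 in SUDHL6, 1.24 in SUDHL4 and 1.29 in Farage. Scaled to the sum of named loci without small RNA the ratios were 1.17, 1.1 and 1.25, and with median-ratio scaling 1.26, 1.31 and 1.37, without overlap in any line either way. No test was made of the sum. UBE2D3 made up 7.45 to 8.73% of it in SUDHL6 BCL6.inh libraries and 5.22 to 5.61% in SUDHL6 DMSO libraries, and UBE2T made up 1.4 to 4.11% and 7.37 to 8.47% in the same 2 groups.

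**Figure D4:**
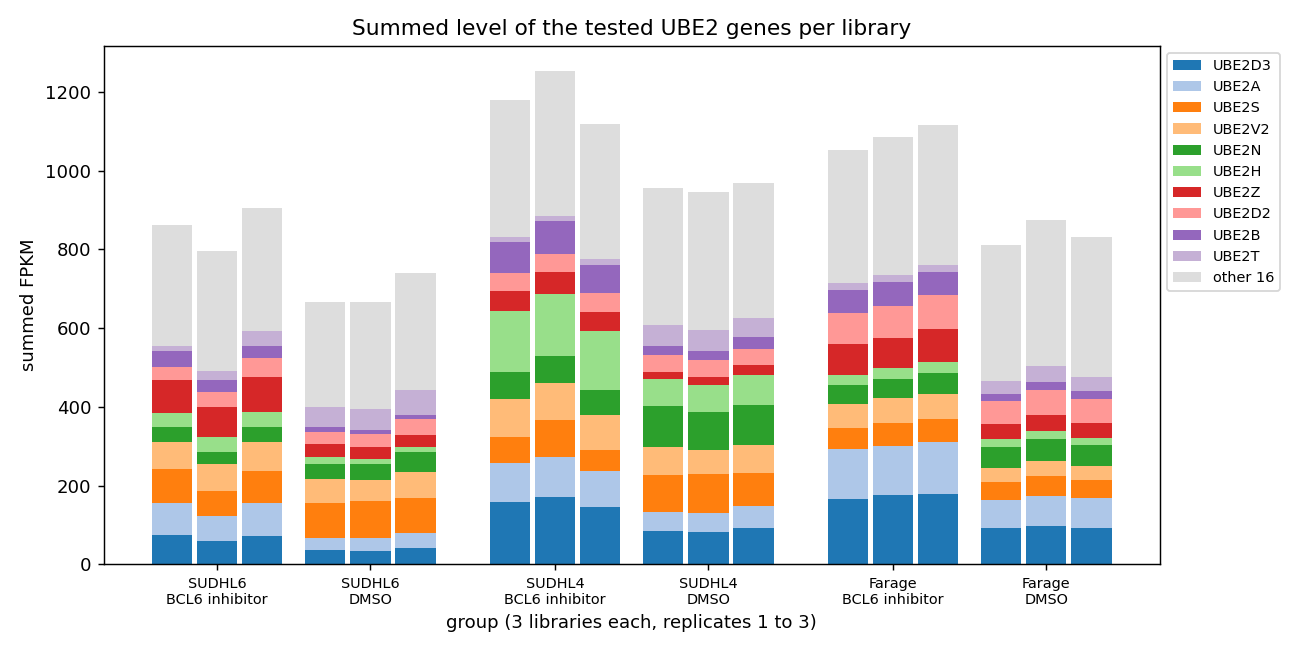
Summed FPKM of the 26 tested UBE2 genes in each of 18 libraries (bars, grouped by line with the BCL6 inhibitor left of DMSO). UBE2D3, UBE2A, UBE2S, UBE2V2, UBE2N, UBE2H, UBE2Z, UBE2D2, UBE2B and UBE2T are drawn singly and the other 16 genes together. Bars reach 796 to 904 FPKM in SUDHL6 BCL6.inh libraries and 667 to 740.5 FPKM in SUDHL6 DMSO libraries.

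**Figure D5:**
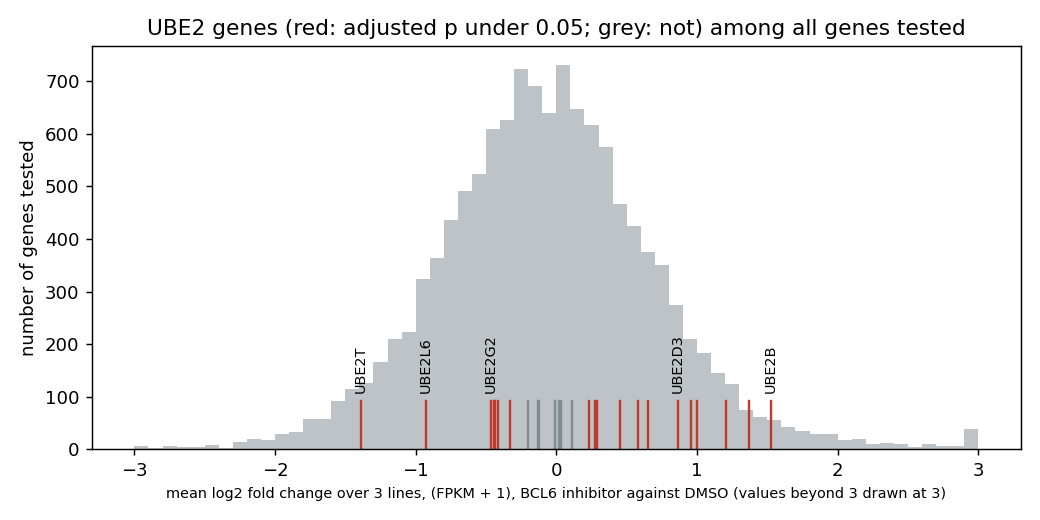
Mean log2 fold change of (FPKM + 1) over the 3 lines, BCL6 inhibitor against DMSO, for all 12201 genes tested (grey bars, number of genes per bin, values beyond 3 drawn at 3) and for the 26 UBE2 genes (ticks, red where the adjusted p is under 0.05). Ticks lie between -1.39 (UBE2T) and 1.52 (UBE2B).

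The enzymes before and after the E2 step moved as well. Lists of 96 other genes of the pathway were counted, of which 78 were tested; on average over the lines 49 rose and 22 fell. Of 9 tested E1 genes 3 rose and 6 fell, and the falls included those of UBA3 (-0.93 ± 0.06 SE) and NAE1 (-0.78 ± 0.06), the subunits of the NEDD8-activating enzyme. Of 5 tested E2 genes without the UBE2 symbol, 3 rose and 2 fell: TSG101, an E2-like protein of endosomal sorting that lacks the catalytic cysteine, rose by 0.56 ± 0.06, while AKTIP (-0.94 ± 0.07), an inactive E2 variant, and ATG10 (-0.53 ± 0.07), an E2 enzyme of autophagy, fell. Of 9 ubiquitin and ubiquitin-like genes 5 rose and 4 fell. The polyubiquitin gene UBB rose by 1.19 ± 0.10, and ISG15, the cargo of UBE2L6, fell (-1.03 ± 0.14).

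Ligase genes rose more often than they fell. Of 13 tested HECT and RBR ligases 10 rose on average and the other 3 were not called, led by ITCH (1.35 ± 0.06), SMURF1 (1.06 ± 0.04) and SMURF2 (0.97 ± 0.05). In SUDHL4 alone 9 of these rose and 2 fell, beside 29.6% and 37.1% of all genes in that line. Of 16 RING and U-box ligases of signalling and quality control 14 rose and 1 fell, with TRAF6 (1.74 ± 0.07), the partner of UBE2N in NF-kB signalling, RNF111 (1.35 ± 0.06) and CBL (1.21 ± 0.06) rising most. Line by line 13 of the 16 rose in SUDHL6, 13 in SUDHL4 and 9 in Farage, and 1 fell in each. Of all genes 30.2%, 29.6% and 29.2% rose in these lines, and 33.7%, 37.1% and 38% fell. Of 8 genes of endoplasmic reticulum associated degradation 7 rose and 1 fell; SEL1L, a subunit of the HRD1 ligase complex, rose by 1.54 ± 0.11 and DERL1, a channel protein of that complex, by 1.34 ± 0.05, while UBE2G2 had a log2 fold change of -0.47 ± 0.04. Of 11 cullin and NEDD8 components 5 rose and 4 fell, with SKP1 (0.85 ± 0.07), CUL3 (0.80 ± 0.04) and DCUN1D1 (0.59 ± 0.05) changing most.

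Of 7 tested partners of the repair E2 enzymes 2 rose and 4 fell, beside 35.7% and 44.9% of all genes. HLTF, a ligase that extends chains on PCNA, fell (-1.76 ± 0.09), as did FANCL, the partner of UBE2T (-0.78 ± 0.16). UBR2, a ligase that works with UBE2A and UBE2B, rose by 1.49 ± 0.05. RAD18, the ligase of UBE2A and UBE2B for PCNA, was not called (0.05 ± 0.07, adjusted p = 0.513). RNF20, their ligase for a core histone, fell (-0.49 ± 0.05, adjusted p = 2.07e-07). FANCL averaged 9.03 FPKM under the inhibitor and 18.6 FPKM under DMSO in SUDHL6. With inhibitor and DMSO it averaged 7.25 and 12.8 FPKM in SUDHL4 and 13.3 and 21.4 FPKM in Farage. UBR2 averaged 49.3 FPKM under the inhibitor and 14.8 FPKM under DMSO in SUDHL6. With inhibitor and DMSO it averaged 25.1 and 9.04 FPKM in SUDHL4 and 27.9 and 9.96 FPKM in Farage. Apart from RAD18, all genes named from these lists had an adjusted p under 0.05 for the mean over lines, the highest being 0.000326 for FANCL. These counts stand beside 35.7% of all genes that rose and 44.9% that fell.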

How the data were processed

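Messenger RNA of 18 libraries was prepared with an Illumina kit, per the labels' protocols. Per the submitters' processing notes, CASAVA 1.8, TopHat2, Cufflinks and hg19 were used, and the authors deposited 1 table of FPKM per locus. The sources used here do not give strandedness, read counts or the handling of reads that match several loci. From the deposited FPKM, log2(FPKM + 1) of named loci with at least 1 FPKM in at least 3 libraries was fitted with limma 3.58.1 in R 4.3.3 (1 mean per group, mean-variance trend), with Benjamini-Hochberg adjustment over 12201 genes and a threshold of 0.05. Errors are SE for log2 fold changes and SD for levels. Nothing in the labels says that replicates were separate cultures, so p-values measure the spread between these libraries. Same-numbered libraries deviated together in SUDHL6 (correlations 0.309, 0.366 and 0.664), although SUDHL6 replicates 1 and 2 also correlated across numbers (0.271 and 0.32), but not in SUDHL4 or Farage (-0.0579 to 0.0767), so a fit with the replicate number as a block is given beside results in SUDHL6 or between lines whose call it changes. Members shown library by library were the 6 with the largest mean rise, the 6 with the largest mean fall, the 5 with the smallest p for a difference between lines and, for roles with none of these, the 2 most abundant. From each pathway list came up to 3 genes with the largest called change, besides RAD18 and RNF20, ligases of UBE2A and UBE2B. Values of 1 tested member and some listed genes are not reported here, though they enter the counts. Members, roles and lists were chosen with earlier results of these data known. Alternatives covered the pseudocount, filter, scaling, block, fit and left-out libraries. The fit was tested on simulated data.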

Additional observations from a re-analysis of the deposited data

Results flagged for a closer look

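The response to the inhibitor differed between the 3 lines for 13 members (limma moderated F test, n = 3 libraries per group, adjusted over all genes), against 52.5% of all genes tested. The adjusted p was 3.06e-05 for UBE2E1, which rose in SUDHL6 and fell in Farage. It was 0.000403 for UBE2Q1, which rose least in SUDHL4, 0.000499 for UBE2H, which rose least in Farage, and 0.000921 for UBE2R2, which rose most in SUDHL4. UBE2Q2, called only in SUDHL4, had 0.00124 and UBE2J2, called only in SUDHL6, 0.00136. UBE2D4 had 0.00285, UBE2V2 0.00317, UBE2G2 0.00659, UBE2Z 0.0198, UBE2N 0.0222, UBE2O 0.0286 and UBE2S 0.0407. The UBE2N call ended without SUDHL4 BCL6.inh replicate 3 (0.0591) or SUDHL4 DMSO replicate 1 (0.0589). The UBE2S call ended when any of 10 of the 18 libraries was left out (0.0536 to 0.0902).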

How the results depend on the processing

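All 19 calls of the mean over lines held under every alternative in which the gene was tested; UBE2D4 was not tested with a mean of at least 5 FPKM. Fitted on SUDHL6 libraries alone, 10 members rose and 2 fell there, against 13 and 7. Leaving out 1 library at a time gave 11 to 15 rises and 6 to 7 falls in SUDHL6, 10 rises and 6 to 9 falls in SUDHL4, 11 to 12 rises and 5 to 7 falls in Farage, and 10 to 16 members that differed between lines. Members not called in the comparison changed sign: under the scaling to the sum without small RNA, UBE2E1 (-0.023 in SUDHL4, -0.059 on average), UBE2J2 (-0.033 in SUDHL4, -0.037 in Farage) and UBE2L3 (-0.021 in SUDHL6, -0.019 in Farage); under median-ratio scaling, UBE2L3 (0.049 on average). Without both SUDHL6 replicate 3 libraries, UBE2E2 was 0.084 in SUDHL6. With 1 library left out at a time, UBE2E2 ran from -0.490 to 0.159 in SUDHL6 and -0.046 to 0.235 in Farage, UBE2J2 from -0.070 to 0.044 in Farage, and UBE2L3 from -0.0066 to 0.124 in SUDHL6 and -0.031 to 0.012 on average. The cause was not tested. UBE2D4 missed in Farage with a pseudocount of 5 (0.0572) and median-ratio scaling (0.0769). UBE2E3 missed in SUDHL4 with a pseudocount of 5 (0.0632), median-ratio scaling (0.0602) and no filter on low values (0.0905). In Farage UBE2E3 missed with no filter (0.0594). UBE2V2 missed in SUDHL6 under the scaling to the sum without small RNA (0.12, adjusted p = 0.191). It also missed there with no filter (0.0796) and without the mean-variance trend (0.0525). UBE2D1 missed in SUDHL6 with no filter (0.091). With median-ratio scaling UBE2E1 (0.22, adjusted p = 0.017) and UBE2J2 (0.20, adjusted p = 0.0383) were called in SUDHL4. With the replicate block, 15 members rose and 7 fell in SUDHL6, 11 and 10 in SUDHL4, 11 and 7 in Farage, and 12 and 8 on average, and 15 differed between lines; UBE2O (0.0613) no longer did. Since the depth is unknown, no counting error can be given.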
